A study of Mus musculus with 26 samples.

Results

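The genes that write and remove histone methylation and that write histone acetylation were followed in the mouse macrophage-like line RAW264.7. The set holds every protein-coding mm10 RefSeq gene whose symbol begins with Kdm, Kmt, Setd or Kat and then a digit, together with Ep300, Crebbp, Ezh1, Ezh2, Dot1l and Nsd1 to Nsd3. It came to 50 genes of 21887. The rule uses names only, but it was written with earlier results of these data known.

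The groups were cells that stably express HA-tagged Nur77 and were given LPS, the same Nur77 cells untreated, GFP-expressing cells given LPS, and GFP-expressing cells untreated. All groups received 50 ng/ml doxycycline for 18 h to switch on the construct, and LPS was given at 500 ng/ml for 1 h. Nur77 is an orphan nuclear receptor of the NR4A family, and each construct was carried by 1 stable line, so a difference between the lines cannot be told apart from a difference between 2 cell isolates. Chromatin immunoprecipitation with sequencing was made for RNA polymerase II (Pol II) and for H3K27ac, with 2 libraries for each line and treatment, and for the HA tag in the Nur77 line only, with 3 libraries per treatment. HA chromatin was fixed with 2 mM DSG before 1% formaldehyde. The design addresses what LPS does to promoters and enhancers in macrophages and what added Nur77 changes.

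Histone lysine methyltransferases place methyl groups whose meaning depends on the residue. Methylation of H3K4 marks promoters and enhancers, H3K36 and H3K79 methylation mark transcribed gene bodies, and H3K27 methylation by Polycomb repressive complex 2 marks silenced genes. Demethylases of the Kdm families remove these marks, and the acetyltransferases, among them p300 and CBP, place marks of active chromatin, H3K27ac included. In macrophages Kdm6b, also called Jmjd3, is known as an H3K27 demethylase gene that inflammatory stimuli induce.

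Each library holds 6.414 to 18.247 M mapped tags for HA, 11.883 to 23.121 M for Pol II and 22.329 to 28.364 M for H3K27ac (M, mega). The unit throughout is the deposited normalized tag count, which is tags per 10 M mapped tags, summed over all peaks that touch a gene or its 1 kb flanks and divided by a scaling factor of the library. The HA libraries of replicate 3 had estimated fragment lengths of 426 bp after LPS and 342 bp untreated, against 826 to 1016 bp in the other HA libraries. The Pol II library of untreated Nur77 cells, replicate 1, was given a fragment length of 1550 bp, against 174 to 318 bp in the other Pol II libraries. Of 10 macrophage marker genes, 9 carried Pol II and 10 carried H3K27ac in every library, and 3 fibroblast markers and 1 hepatocyte marker carried neither. Of 4 T cell markers Cd3e, Cd3g and Cd8a had no Pol II or H3K27ac peak in any library, while Cd4 carried 11.1 to 22.7 normalized tags of Pol II in Nur77 LPS libraries, against 344 to 372 in untreated Nur77 cells, and 17.8 to 441 in GFP LPS libraries, against 447 to 660.3 in untreated GFP cells. The B cell gene Cd79a (263 to 337 tags) and the glial gene Gfap (52.2 to 266 tags) carried Pol II in every library, and the epithelial gene Cdh1 carried 37.8 to 117 tags of H3K27ac. The part of these markers in the results was not tested. A higher sum can come from more tags per cell or from more cells with tags, and these assays of bulk chromatin cannot tell these apart. The labels do not say whether replicates came from separate cultures, so p-values may measure technical spread only.

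RefSeq promoter windows of 300 bases, 250 before and 50 after the annotated start (GRCm38.p6, the mm10 assembly), were at hand for 38 of the 50 genes, in 52 windows. The windows below were chosen after values were seen. They belong to Kdm4a, Kdm5b, Kmt2d, Kmt5c and Ezh2, 5 of the genes called for Pol II after LPS, and to Kat7, whose window lies inside an HA region found in all HA libraries. Called genes with a window that is not printed are Kdm1b, Kdm2b and Kmt2c. Capitals mark matches to 4 motifs, searched on both strands: AAAGGTCA, the monomer site of Nur77 (NBRE), TGANTCA for AP-1, GGG and CC with NNNNN between them for NF-kB, and TGACGTCA, the cAMP response element (CRE).

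Kat7, chr11:95310197-95310496, minus strand, 1 NBRE match: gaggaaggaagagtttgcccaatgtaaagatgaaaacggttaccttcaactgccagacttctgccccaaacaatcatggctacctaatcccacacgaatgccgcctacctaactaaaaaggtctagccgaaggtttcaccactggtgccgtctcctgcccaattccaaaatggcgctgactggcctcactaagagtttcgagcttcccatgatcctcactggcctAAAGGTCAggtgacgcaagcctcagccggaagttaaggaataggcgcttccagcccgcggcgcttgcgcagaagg

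Kdm4a, chr4:118179994-118180293, minus strand, 1 AP-1 match: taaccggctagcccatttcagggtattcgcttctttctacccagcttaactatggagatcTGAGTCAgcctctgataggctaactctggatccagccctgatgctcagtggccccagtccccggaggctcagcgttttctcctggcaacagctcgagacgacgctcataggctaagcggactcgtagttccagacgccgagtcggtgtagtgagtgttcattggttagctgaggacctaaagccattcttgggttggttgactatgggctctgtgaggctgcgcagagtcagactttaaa

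Kdm5b, chr1:134559928-134560227, plus strand, 2 NF-kB matches: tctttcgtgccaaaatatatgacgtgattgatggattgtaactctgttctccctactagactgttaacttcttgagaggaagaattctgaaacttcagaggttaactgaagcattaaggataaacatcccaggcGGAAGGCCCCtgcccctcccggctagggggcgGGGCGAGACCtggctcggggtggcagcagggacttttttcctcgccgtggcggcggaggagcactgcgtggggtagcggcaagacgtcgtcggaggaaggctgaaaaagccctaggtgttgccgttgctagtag

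Kmt2d, chr15:98871156-98871455, minus strand, 3 NF-kB matches: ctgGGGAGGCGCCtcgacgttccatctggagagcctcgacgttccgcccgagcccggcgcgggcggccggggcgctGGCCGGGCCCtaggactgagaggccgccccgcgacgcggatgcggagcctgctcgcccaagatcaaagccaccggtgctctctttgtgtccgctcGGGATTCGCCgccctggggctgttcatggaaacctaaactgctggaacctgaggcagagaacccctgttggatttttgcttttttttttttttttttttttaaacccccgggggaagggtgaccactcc

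Kmt5c, chr7:4739877-4740176, plus strand, 1 NF-kB match: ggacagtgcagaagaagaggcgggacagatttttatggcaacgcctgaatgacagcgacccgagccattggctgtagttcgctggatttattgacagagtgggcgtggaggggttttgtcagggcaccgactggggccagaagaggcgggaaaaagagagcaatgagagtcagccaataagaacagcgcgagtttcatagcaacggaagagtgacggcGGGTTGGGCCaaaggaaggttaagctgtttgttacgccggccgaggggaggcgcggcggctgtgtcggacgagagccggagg

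Ezh2, chr6:47594981-47595280, minus strand, no match: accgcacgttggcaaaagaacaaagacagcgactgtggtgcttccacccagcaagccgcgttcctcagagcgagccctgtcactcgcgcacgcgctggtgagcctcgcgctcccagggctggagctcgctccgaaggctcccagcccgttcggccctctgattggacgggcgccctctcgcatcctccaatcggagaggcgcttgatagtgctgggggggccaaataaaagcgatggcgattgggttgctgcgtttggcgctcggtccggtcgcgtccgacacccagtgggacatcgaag

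The NBRE occurred in 2 of the 52 windows (Kat7 and Kdm6a), which is 3.85%, against 1.3% of all 21263 windows. AP-1 occurred in 6, or 11.5% against 6.99%. NF-kB occurred in 35, or 67.3% against 57%, and the CRE in 0 of 52 against 2.23%. The windows were rich in G and C, with a median of 62.7% G+C and 26.5 CpG, against 56.3% and 13 over all windows. A Pol II peak of every library touched 48 of the 52 windows, or 92.3% against 45.8% of all, and an H3K27ac peak touched 46, or 88.5% against 45.8%. An HA peak of every library touched 3 windows (Kat14, Kat7 and Kmt5b), or 5.77% against 3.85%. These shares are descriptions and carry no test.

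All 50 genes had a Pol II and an H3K27ac peak in every library, so none was left out of those comparisons. HA peaks were found in every HA library for 23 genes, in some libraries for 23 and in none for Kmt2b, Setd6, Kdm5d and Kdm8. On a scale of Pol II tags per kb of gene span with flanks, where a peak counts in proportion to its overlap, Kdm6b had the highest level after LPS, at 159.8 ± 44.4 in Nur77 cells and 158 ± 37.1 in GFP cells (SD, n = 2 each). In untreated cells Kat5, the gene of the Tip60 acetyltransferase, stood first and Kdm6b next, with Kdm6b at 58.1 ± 0.945 in Nur77 cells and 46.7 ± 0.0418 in GFP cells, and Kat5 at 60.1 ± 2.99 and 63.4 ± 11.8 in the same order of lines. The ranges of these 2 genes overlapped in untreated Nur77 cells. By library 28.6 to 100% of the Kat5 Pol II tags lay in peaks shared with Rnaseh2c, and 28.6 to 100% lay over input peaks. Kmt2c, which encodes an enhancer H3K4 methyltransferase and spans 227061 bp, had among the lowest Pol II levels per kb, at 0.349 ± 0.00558 in Nur77 cells and 0.603 ± 0.0176 in GFP cells after LPS. By family, the highest Pol II levels per kb in untreated GFP cells were those of Kmt2d (29.5) among H3K4 methyltransferases, Kat2a (24.7) among the GNAT acetyltransferases, Kmt5c (40.4) among H4K20 methyltransferases, Kdm4a (16.1), Kdm3a (8.27), Kdm5a (7.89), Kdm2a (5.05) and Kdm1b (3.00) in their demethylase families, Ezh1 (6.68) and Nsd3 (4.83). Ep300 had 6.36 ± 0.446 and Crebbp 1.39 ± 0.357 Pol II tags per kb in Nur77 cells after LPS.

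LPS changed Pol II over a minority of the set, with Kdm6b and Kmt2b higher and Kmt2d, Kdm2b and Kmt5c lower in both lines. In Nur77 cells 9 of 50 genes passed a false discovery rate (FDR) of 0.05 (limma, Benjamini-Hochberg over all 11881 genes tested), 3 higher and 6 lower, which is 18% against 24.9% of all genes (12.2% higher, 12.7% lower). In GFP cells 6 of 50 passed, 3 higher and 3 lower, which is 12% against 14% of all genes (7.79% higher, 6.23% lower). In both lines 2 genes were higher and 3 lower, 4% and 6% against 6.8% and 5.62% of all genes. The median log2 change over the 50 genes was -0.0913 in Nur77 cells and -0.122 in GFP cells, against 0.00752 and 0.0119 over all genes tested. Without scaling factors the median of all genes shifted to -0.347 in Nur77 cells and -0.119 in GFP cells, and the calls became 3 higher and 14 lower in Nur77 cells and 2 higher and 4 lower in GFP cells. Of all 11881 genes 745 were then higher and 2616 lower in Nur77 cells, and 669 higher and 876 lower in GFP cells.

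Kdm6b, an H3K27 demethylase gene at chr11:69398508-69420367, gained the most Pol II tags. Its Pol II sum was 5453 and 4566 normalized tags in the Nur77 LPS libraries, against 1717 and 1679 in untreated Nur77 cells. In GFP cells it was 5329.9 and 3581 after LPS, against 1606 and 1397 untreated. Every LPS library lay above every untreated one. The log2 change was 1.55 ± 0.23 (SE) in Nur77 cells, with a limma adjusted p of 0.00491, and 1.54 ± 0.23 in GFP cells, with an adjusted p of 0.00842. The Pol II regions are stitched over several genes here: 43.2 to 100% of the sum came from regions that also touch Cyb5d1, Dnah2, Naa38 or Tmem88, and between 0 and 100% by library overlapped an input peak. The regions covered 28.5 and 33.8 kb in Nur77 LPS libraries, against 20 and 20.8 kb in untreated ones. Per covered kb the log2 change was 0.77 in Nur77 cells, which did not pass, and 1.12 in GFP cells, which did. The GFP call was lost without the untreated GFP replicate 2, where the log2 change was 1.44.

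The H3K4 methyltransferases split. Kmt2b, at chr7:30568855-30589056, rose to 2072 and 2375 normalized Pol II tags in Nur77 LPS libraries, against 493 and 536 in untreated ones, a log2 change of 2.11 ± 0.23 (adjusted p 0.00191, limma). In GFP cells it had 2462 and 1690.1 after LPS, against 1235 and 931 untreated, a log2 change of 0.93 ± 0.23 (adjusted p 0.0447, limma). Regions shared with its neighbours Zbtb32, Igflr1, Lin37, Psenen and U2af1l4 held 97.2 to 100% of these tags. Leaving out any 1 of 7 libraries ended the GFP call, with log2 changes of 0.66 to 1.13. Kmt2d, at chr15:98831669-98874077, whose product monomethylates H3K4 at enhancers, fell to 741 and 725 in Nur77 LPS libraries, against 1902 and 1809 untreated. In GFP cells it had 467 and 577 after LPS, against 1457 and 1716 untreated. Its log2 change was -1.34 ± 0.17 in Nur77 cells (adjusted p 0.00281, limma) and -1.61 ± 0.17 in GFP cells (adjusted p 0.00218, limma), and it kept both calls whichever library was left out. Between 14.9 and 100% of its Pol II tags lay in regions shared with Prkag1 or Rhebl1. Kmt2c, at chr5:25271795-25498855, shares no region with another gene. It had 86.3 and 89.2 tags in Nur77 LPS libraries, against 178 and 190.0 untreated, and fell with a log2 change of -1.06 ± 0.17 (adjusted p 0.0066, limma); without the untreated Nur77 replicate 2 that call was lost at -1.01. In GFP cells its log2 change of -0.52 did not pass (adjusted p 0.0949, limma), but did with the replicate number as a block (adjusted p 0.0402). Kmt2a had 87.6 and 137 tags in Nur77 LPS libraries, against 192 and 175 untreated, a log2 change of -0.74 ± 0.24 that passed only with the block (adjusted p 0.0643, limma; 0.0421 with the block). Setd1a and Setd1b did not pass in either line, with or without the block.

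Among the other demethylases Kdm4a, at chr4:118136957-118180090, which acts on H3K9 and H3K36, had 3232 and 2916 Pol II tags in Nur77 LPS libraries, against 1082 and 711 untreated, and 1643 and 2043 in GFP LPS libraries, against 1085 and 745 untreated. LPS libraries lay above untreated ones in both lines. The log2 change was 1.81 ± 0.27 in Nur77 cells (adjusted p 0.00526, limma) and 1.03 ± 0.27 in GFP cells (adjusted p 0.053, limma; 0.0295 with the replicate block). Between 11.7 and 74.5% of its tags lay in peaks that overlap an input peak; with those left out the log2 change was 0.54 in Nur77 cells and 0.04 in GFP cells. Regions shared with St3gal3 held 26.2 to 74.5% of its Pol II tags. Kdm5b, an H3K4 demethylase gene at chr1:134560178-134632878, carried far less Pol II. It had 119.7 and 83.6 tags in Nur77 LPS libraries, against 45.8 and 45.4 untreated, and 443 and 254 in GFP LPS libraries, against 146 and 96.5 untreated. It passed in GFP cells at a log2 change of 1.49 ± 0.35 (adjusted p 0.0346, limma), where leaving out any 1 of 5 libraries ended the call at 1.09 to 1.79. In Nur77 cells it passed only with the block, at 1.12 ± 0.35 without it (adjusted p 0.0583, limma; 0.0118 with the block). Regions shared with Mgat4e, whose span it adjoins, held 97.1 to 100% of its tags.

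Kdm2b, at chr5:122870664-122989270, encodes an H3K36 demethylase that also brings Polycomb repressive complex 1 to CpG islands. It fell to 198 and 206 Pol II tags in Nur77 LPS libraries, against 477 and 564 untreated, and to 160.2 and 178 in GFP LPS libraries, against 350.4 and 437 untreated. Its regions are shared with no other gene, and its log2 changes were -1.36 ± 0.18 (adjusted p 0.00336, limma) and -1.21 ± 0.18 (adjusted p 0.00793, limma) in Nur77 and GFP cells. Up to 62.3% of its tags lay over input peaks, and with those left out the change was -0.88 in Nur77 cells and 0.12 in GFP cells. The GFP call was also lost without the GFP LPS replicate 1, at -1.13. Kdm1b, a flavin-dependent H3K4 demethylase gene at chr13:47043373-47085279, had 75.2 and 81.8 tags in Nur77 LPS libraries, against 155 and 154 untreated, a log2 change of -0.97 ± 0.20 (adjusted p 0.0144, limma), all of it in regions shared with Tpmt. Leaving out any 1 of 3 libraries ended that call, at -0.90 to -0.98. In GFP cells Kdm1b did not pass at -0.55 (adjusted p 0.114, limma).

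Kmt5c, at chr7:4740092-4747514, whose product trimethylates H4K20 in heterochromatin, had 104 and 149.8 Pol II tags in Nur77 LPS libraries, against 383 and 410.5 untreated, and 202 and 214 in GFP LPS libraries, against 600.2 and 406 untreated. It fell by 1.66 ± 0.25 on the log2 scale in Nur77 cells (adjusted p 0.00524, limma) and by 1.24 ± 0.25 in GFP cells (adjusted p 0.0227, limma). The covered length moved with it: peaks over Kmt5c spanned 2.17 and 2.74 kb in Nur77 LPS libraries, against 10.1 and 7.45 kb untreated, and per covered kb the log2 change was -0.01 in Nur77 cells and 0.14 in GFP cells. Between 0 and 100% of its Pol II tags by library lay in regions shared with Cox6b2 or Fam71e2, and between 0 and 100% over input peaks. Leaving out any 1 of 3 libraries ended the GFP call, at -0.96 to -1.28. Ezh2, the catalytic subunit of Polycomb repressive complex 2, at chr6:47530274-47595270, had 285 and 294 tags in Nur77 LPS libraries, against 524 and 804 untreated, and 219 and 286 in GFP LPS libraries, against 349 and 631 untreated. All LPS libraries lay below all untreated ones. It passed in Nur77 cells at -1.16 ± 0.33 (adjusted p 0.0445, limma), a call that any 1 of 6 left-out libraries ended at -0.86 to -1.48 and that was lost when tags were counted in proportion to overlap (-0.61). In GFP cells it was at -0.91 ± 0.33 (adjusted p 0.123, limma; 0.0265 with the block).

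Without the replicate block none of the 10 acetyltransferase genes passed for Pol II in either line, with log2 changes between -0.64 and 0.27. Of all genes 24.9% passed in Nur77 cells and 14% in GFP cells. With the block 1 of the 10 fell in each line, which is 10%, beside 19.3% of all genes in Nur77 cells and 12.4% in GFP cells. Kat14, a subunit gene of the ATAC complex, had 531 and 533 Pol II tags in Nur77 LPS libraries, against 729 and 707 untreated (-0.43 ± 0.13, adjusted p 0.0507, limma; 0.0237 with the block). Kat2b, the gene of PCAF, had 209 and 207 in GFP LPS libraries, against 302 and 352 untreated (-0.64 ± 0.17, adjusted p 0.0535, limma; 0.0356 with the block). In every library 100% of the Kat14 Pol II tags lay in regions shared with Pet117, while Kat2b shared none. Ep300, at chr15:81586209-81652077, had 905 and 836 Pol II tags in Nur77 LPS libraries, against 809 and 812 untreated, and 932 and 751 in GFP LPS libraries, against 970.4 and 882 untreated. Crebbp, at chr16:4081334-4213957, had 221 and 153 in Nur77 LPS libraries, against 224 and 215 untreated, and 231 and 168 in GFP LPS libraries, against 238 and 204 untreated. The log2 change of Ep300 was 0.10 ± 0.16 in Nur77 cells and -0.14 ± 0.16 in GFP cells, and that of Crebbp -0.25 ± 0.24 and -0.16 ± 0.24, and neither gene passed.

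**Figure D1:**
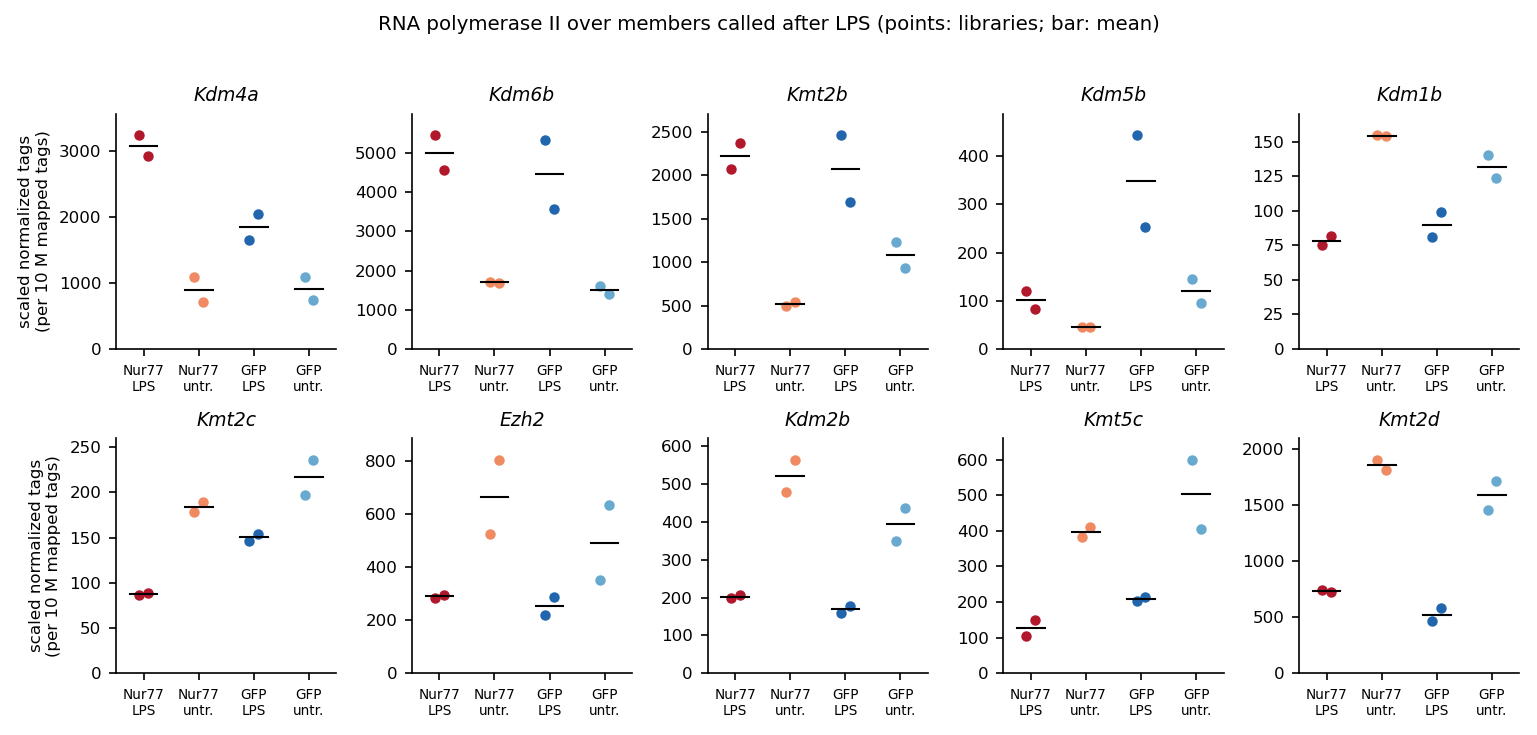
Pol II in scaled normalized tags per 10 M mapped tags (vertical axes, each from 0) over the 10 genes called after LPS in at least 1 line, for Nur77 LPS, Nur77 untreated, GFP LPS and GFP untreated libraries; points are libraries and bars are means. In every panel both LPS libraries of a line lie on one side of both of its untreated libraries, as for Kdm6b at 5453 and 4566 against 1717 and 1679 in Nur77 cells.

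Libraries with the same replicate number deviated together in Pol II, so the number was also fitted as a block. With it 22 genes passed in Nur77 cells, 10 higher and 12 lower (44% against 38.7% of all genes, 19.4% higher and 19.3% lower), and 13 in GFP cells, 6 higher and 7 lower (26% against 25.9%, 13.4% higher and 12.4% lower). No call was lost. The 13 genes added in Nur77 cells were Kdm5b, Dot1l, Kdm3b, Kat14, Setd7, Kmt2e, Nsd2, Kmt5a, Kdm5a, Kdm8, Kdm4d, Kmt2a and Kdm5c, and the 7 added in GFP cells were Dot1l, Kat2b, Kdm4a, Kmt2e, Kmt2c, Kmt5a and Ezh2. By library 98.7 to 100% of the Kmt2e Pol II tags and 99 to 100% of those of Kdm5a lay over input peaks. Without the untreated Nur77 library of 1550 bp fragment length the blocked counts were 9 in Nur77 cells and 8 in GFP cells. Without the block, leaving out a library gave 6 to 9 calls in Nur77 cells; in GFP cells the count was 2 without GFP LPS replicate 1, 3 without untreated GFP replicate 1 and 3 without untreated GFP replicate 2. With tags per covered kb the counts were 4 in Nur77 cells and 1 in GFP cells, beside 587 and 279 of all 11881 genes. The calls lost were Kdm6b, Kdm1b, Ezh2, Kmt5c and Kmt2b in Nur77 cells and Kdm5b, Kmt2d, Kdm2b, Kmt5c and Kmt2b in GFP cells. The part of region width, shared regions and input peaks in these results was not tested.

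H3K27ac moved over more of the set, with all 4 Kdm5 genes, Kdm4a and Kdm6b higher and Ezh2, Kdm2b, Kmt2d, Kdm4b and Nsd1 lower in both lines. In Nur77 cells 30 of 50 genes passed, 13 higher and 17 lower, which is 60% against 58.5% of all 12046 genes tested (30.3% higher, 28.3% lower). In GFP cells 28 passed, 11 higher and 17 lower, which is 56% against 54.4% (29% higher, 25.4% lower). These shares are near those of all genes. In both lines 11 genes were higher and 14 lower, 22% and 28% against 24% and 20.8% of all genes. None changed direction between the lines, against 0.315% of all genes. In Nur77 cells alone 5 passed (10% against 13.4%), and in GFP cells alone 3 (6% against 9.18%). The test of the LPS response between the lines called 0 of 50 (0.855% of all genes; limma, with 3 of 50 at an unadjusted p below 0.05), so no difference in response is claimed for those 8. The medians over the 50 genes were -0.067 in Nur77 cells and -0.0356 in GFP cells, against 0.0135 and 0.00928 over all genes. Without the scaling factors the median of all genes shifted to -0.417 in Nur77 cells and -0.397 in GFP cells, and the calls became 4 higher and 33 lower in Nur77 cells and 3 higher and 33 lower in GFP cells. Of all 12046 genes 1118 were then higher and 7192 lower in Nur77 cells, and 1243 higher and 7022 lower in GFP cells. The directions given here are therefore relative to the bulk of genes. Per covered kb 11 of the 30 calls in Nur77 cells and 14 of the 28 in GFP cells were lost. Kdm5a is not counted among these, since per covered kb it passed as lower in both lines. With that measure 21 genes of the set passed in Nur77 cells and 16 in GFP cells, beside 4439 and 4073 of all 12046 genes.

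The Kdm5 genes encode H3K4 demethylases. Kdm5c on the X chromosome shares no region and overlaps no input peak; it had 279 and 267 H3K27ac tags in Nur77 LPS libraries, against 145 and 161 untreated, and 275 and 272 in GFP LPS libraries, against 178 and 179 untreated. Its log2 change was 0.83 ± 0.07 in Nur77 cells (adjusted p 8.96e-05, limma) and 0.61 ± 0.07 in GFP cells (adjusted p 0.000419, limma). Kdm5b had 85.0 and 64.8 in Nur77 LPS libraries, against 35.3 and 41.6 untreated, and 205 and 177 in GFP LPS libraries, against 79.3 and 92.2 untreated, with log2 changes of 0.94 ± 0.17 and 1.14 ± 0.17. Kdm5a rose by 0.55 and 0.40 and Kdm5d by 0.50 and 0.44 on the log2 scale in Nur77 and GFP cells. For Kdm5a 74.9 to 98.8% of the tags lay in regions that are shared with Ccdc77 and overlap input, and per covered kb its change turned to -0.39 and -0.42. Per covered kb the Kdm5c calls of both lines were lost, as was that of Kdm5d in Nur77 cells. With sums over all regions, the 8 calls held when any single library was left out. Between 71.9 and 100% of the Kdm5b tags lay in a region shared with Mgat4e. For Pol II without the block, Kdm5b passed in GFP cells and Kdm5a, Kdm5c and Kdm5d in neither line. Regions shared with Ccdc77 held 99 to 100% of the Kdm5a Pol II tags, and 99 to 100% lay over input peaks. With the block Kdm5a (0.46 ± 0.16, adjusted p 0.0829, limma; 0.0213 with the block) and Kdm5c (0.68 ± 0.21, adjusted p 0.0575, limma; 0.0272 with the block) also passed in Nur77 cells.

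Kdm4a had 2278 and 2055 H3K27ac tags in Nur77 LPS libraries, against 1019 and 969 untreated, and 2238 and 1925 in GFP LPS libraries, against 963 and 1046 untreated. It rose by 1.12 ± 0.09 (adjusted p 5.58e-05, limma) and 1.05 ± 0.09 (adjusted p 7.94e-05, limma). With peaks over input left out, which held 33.8 to 80.3% of its tags, the values were 0.14 and -0.09. Regions shared with St3gal3 held 24.4 to 80.3% of these tags. Kdm6b had 2346 and 2067 in Nur77 LPS libraries, against 1347 and 1328 untreated, and 1575 and 2024 in GFP LPS libraries, against 1098 and 1106 untreated, with log2 changes of 0.72 ± 0.11 and 0.70 ± 0.11. No input peak overlaps its H3K27ac, and up to 54.9% of it by library is shared with neighbours. Kdm6a, the X-linked H3K27 demethylase gene of the same family, moved the other way: it had 236 and 280.4 in Nur77 LPS libraries, against 308 and 327 untreated, and 292 and 269 in GFP LPS libraries, against 357 and 329.9 untreated, log2 changes of -0.30 ± 0.10 (adjusted p 0.0312, limma) and -0.29 ± 0.10 (adjusted p 0.039, limma). Any 1 of 3 left-out libraries ended the Nur77 call at -0.18 to -0.35, and any 1 of 5 the GFP call at -0.24 to -0.35.

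Of the remaining demethylase genes, Kdm2b fell to 435 and 449.7 tags in Nur77 LPS libraries, against 654 and 681 untreated, and to 254 and 272 in GFP LPS libraries, against 469 and 441 untreated, log2 changes of -0.59 ± 0.06 and -0.79 ± 0.06. With peaks over input left out the GFP value was -0.00. Kdm4b, an H3K9 and H3K36 demethylase gene, fell by 0.82 and 0.65 on the log2 scale, Kdm1b by 0.82 and 0.95, and Kdm8, which encodes a hydroxylase, by 0.46 and 0.36, in Nur77 and GFP cells. Kdm3a rose by 0.22 and Kdm3b, both H3K9 demethylase genes, fell by 0.43 in Nur77 cells; in GFP cells their changes of 0.10 and -0.21 did not pass. Kdm1a, Kdm2a, Kdm4c, Kdm4d and Kdm7a did not pass in either line.

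Ezh2 had 354 and 355 H3K27ac tags in Nur77 LPS libraries, against 523 and 549 untreated, and 282 and 283 in GFP LPS libraries, against 501 and 507 untreated. Its log2 change was -0.59 ± 0.06 in Nur77 cells (adjusted p 0.000116, limma) and -0.83 ± 0.06 in GFP cells (adjusted p 2.8e-05, limma), no other gene shares its peaks, and both calls held without any single library. Its paralog Ezh1 did not pass in either line. Among H3K4 methyltransferases Kmt2d fell to 769 and 774 in Nur77 LPS libraries, against 1111 and 1154 untreated, and to 784 and 733 in GFP LPS libraries, against 1230.0 and 1099.7 untreated, log2 changes of -0.55 ± 0.07 and -0.62 ± 0.07. Kmt2b rose by 1.04 and 0.56 and Kmt2a by 0.21 and 0.19, while Kmt2c fell by 0.32 in Nur77 cells and, at -0.19, did not pass in GFP cells. Regions shared with Zbtb32 held 98.1 to 100% of the Kmt2b tags, and its GFP call was lost per covered kb. Leaving out any 1 of 3 libraries ended the Kmt2a call in Nur77 cells, and any 1 of 6 that in GFP cells. Setd1b fell by 0.56 and 0.34, but 93.8 to 96.5% of its tags are shared with Rhof, and the GFP change turned to 0.29 with tags in proportion to overlap and to 0.04 per covered kb. Setd1a did not pass. Kmt2e, which belongs to the same family by sequence and for which no lysine methyltransferase activity is established, rose by 0.39 and 0.43. By library 78.6 to 88.9% of the Kmt2e tags lay over input peaks, and per covered kb both of its calls were lost.

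Nsd1, an H3K36 methyltransferase gene at chr13:55209782-55318325, showed the greatest H3K27ac fall of the set, with 42.5 and 45.0 tags in Nur77 LPS libraries, against 284 and 328 untreated, and 56.2 and 63.0 in GFP LPS libraries, against 329.7 and 322 untreated. The log2 changes of -2.77 ± 0.10 and -2.43 ± 0.10 draw on stitched regions of which 64 to 100% of the tags were shared with Mxd3, Prelid1 or Rab24. The regions covered 1.51 and 1.78 kb in Nur77 LPS libraries, against 6.25 and 6.83 kb untreated. With tags in proportion to overlap the log2 changes were -1.08 and -1.25. Nsd3 rose by 0.44 and 0.36, and Nsd2 fell by 0.24 in GFP cells. Kmt5c fell by 0.59 and 0.52, and Kmt5a, the H4K20 monomethyltransferase gene, by 0.19 in Nur77 cells. Setd6 fell by 0.31 and 0.38 and Setd7, which encodes an H3K4 monomethyltransferase, by 0.29 and 0.20. All Setd6 tags lie in regions shared with Cnot1 or Ndrg4.

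Of the 10 acetyltransferase genes 4 passed for H3K27ac in Nur77 cells, 2 higher and 2 lower, beside 58.5% of all genes (30.3% higher, 28.3% lower). In GFP cells 5 passed, 1 higher and 4 lower, beside 54.4% of all genes (29% higher, 25.4% lower). Kat5 rose by 0.34 and 0.30, Kat14 fell by 0.55 and 0.37, and Kat7, the gene of HBO1, fell by 0.25 and 0.33, in Nur77 and GFP cells. By library 85.7 to 98.7% of the Kat14 tags lay in regions shared with Pet117. Leaving out any 1 of 2 libraries ended the Kat7 call in Nur77 cells and the Kat5 call in GFP cells. Kat6b rose by 0.20 in Nur77 cells, and Kat2b and Kat8 fell by 0.33 and 0.27 in GFP cells. Per covered kb the GFP calls of Kat5, Kat14, Kat7, Kat2b and Kat8 and the Nur77 calls of Kat7 and Kat6b were lost. Ep300 had 751 and 769 H3K27ac tags in Nur77 LPS libraries, against 827 and 821 untreated, and 852 and 747 in GFP LPS libraries, against 839.9 and 813 untreated. Crebbp had 343 and 294 in Nur77 LPS libraries, against 290.2 and 247 untreated, and 258 and 267 in GFP LPS libraries, against 243 and 218 untreated. Neither passed in either line, with log2 changes of -0.12 and -0.05 for Ep300 and 0.25 and 0.19 for Crebbp.

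**Figure D2:**
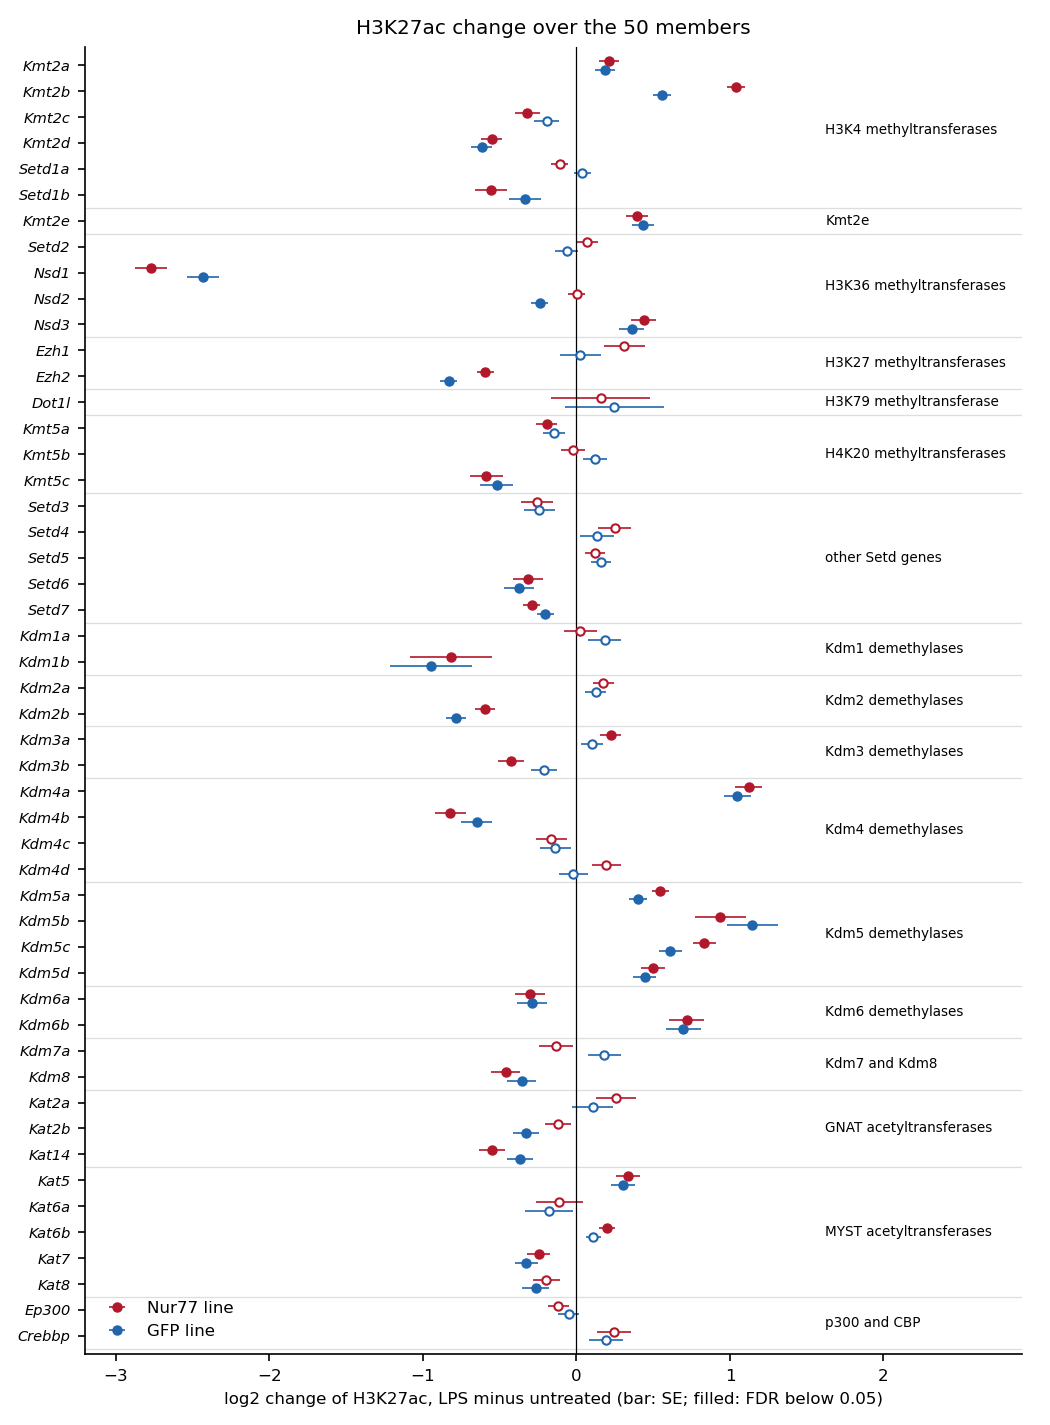
Log2 change of H3K27ac, LPS minus untreated (horizontal axis), for each of the 50 genes by family, in Nur77 cells (red) and GFP cells (blue); bars are SE and filled points passed FDR 0.05. The 4 Kdm5 genes lie between 0.40 and 1.14, and Nsd1 at -2.77 and -2.43 stands apart on the left.

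**Figure D3:**
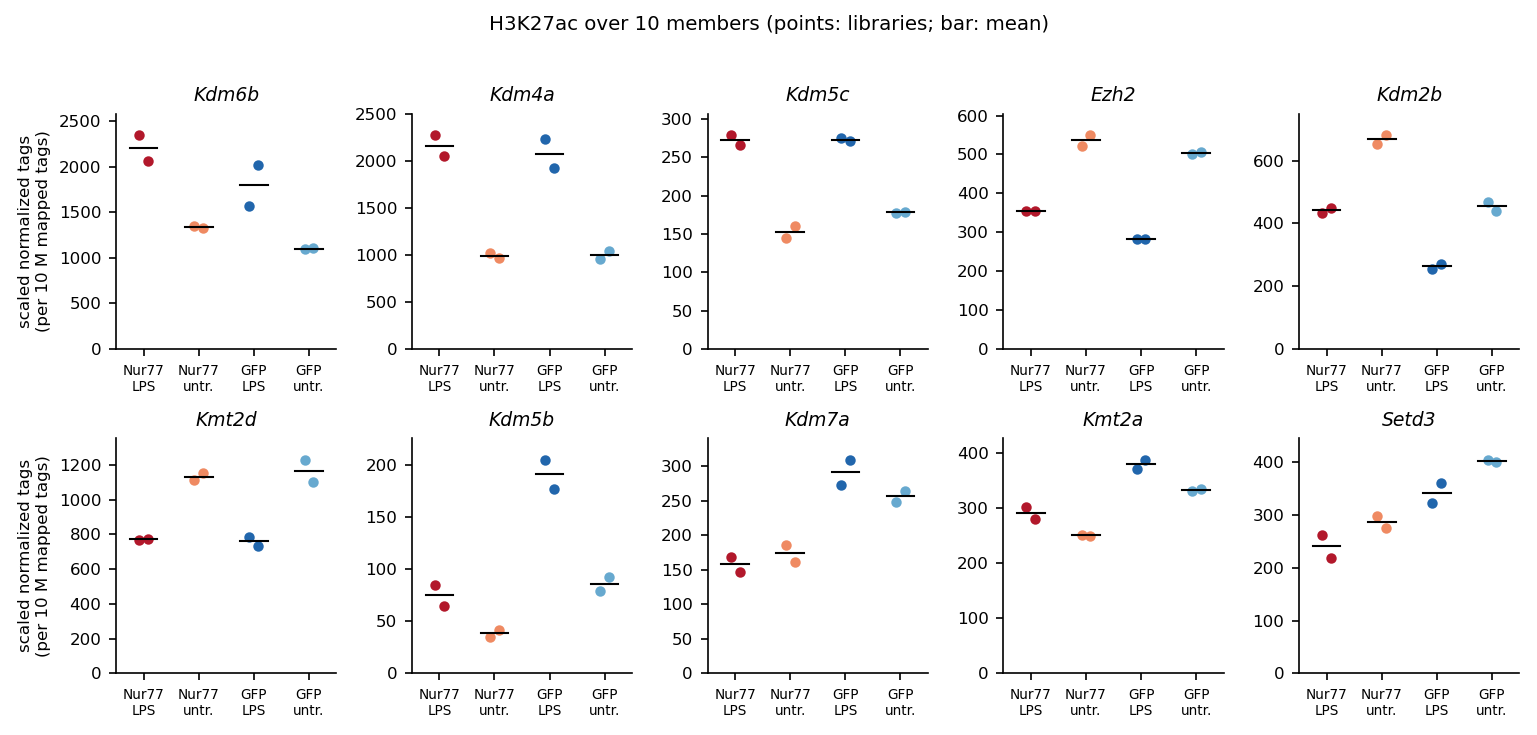
H3K27ac in scaled normalized tags per 10 M mapped tags (vertical axes, each from 0) over 10 genes, for Nur77 LPS, Nur77 untreated, GFP LPS and GFP untreated libraries; points are libraries and bars are means. Ezh2 lies at 354 and 355 after LPS, against 523 and 549 untreated, in Nur77 cells, and Kdm5b, Kdm7a, Kmt2a and Setd3 are lower in the Nur77 line than in the GFP line under both treatments.

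Within genes, H3K27ac regions could move apart. Peaks of all libraries merged into 116 tested regions over the set, of which 73 passed in Nur77 cells, 32 higher and 41 lower (62.9% against 55.6% of all 27094 regions, 28.5% higher and 27.1% lower), and 63 in GFP cells, 26 higher and 37 lower (54.3% against 53%, 27.5% higher and 25.5% lower). In both lines 23 were higher and 33 lower, counts for which no share over all regions is given here. Without scaling factors the calls were 19 higher and 63 lower in Nur77 cells and 12 higher and 63 lower in GFP cells. Over all 27094 regions they were then 4014 higher and 12616 lower in Nur77 cells and 4053 higher and 12245 lower in GFP cells. Per covered kb 51 passed in Nur77 cells, 21 higher and 30 lower, and 41 in GFP cells, 15 higher and 26 lower. That is 44.0% and 35.3% of the set, beside 12038 and 11049 of all 27094 regions. Regions called in both directions lay in 10 genes in Nur77 cells and in 6 in GFP cells. Of the 32 genes with 2 or more tested regions that is 31.2% and 18.8%, against 21.6% and 19.5% of all 5192 such genes. Nsd2 was one: chr5:33832289-33837577 rose to 113 and 131 tags in Nur77 LPS libraries, against 31.8 and 37.1 untreated (log2 1.80 ± 0.15), and to 87.7 and 84.0 in GFP LPS libraries, against 30.1 and 33.0 untreated (1.42 ± 0.15), while chr5:33818563-33825634, which also touches Gm52782, fell by 0.92 and 0.75. At Setd7 chr3:51534395-51537778 rose by 1.17 and 0.74, while chr3:51517263-51522133 fell by 0.87 and 1.04.

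Between the lines 26 regions differed untreated, 18 higher and 8 lower in Nur77 cells (30.8% of all regions, 15.4% higher and 15.3% lower), and 38 after LPS, 26 higher and 12 lower (36%, 16.5% higher and 19.5% lower; 17 higher and 16 lower of the set without scaling). Without scaling 3523 of all 27094 regions were higher and 5910 lower after LPS. Per covered kb 10 differed untreated, 6 higher and 4 lower, and 12 after LPS, 7 higher and 5 lower. Of all 27094 regions 3838 and 4572 then differed. For the difference in LPS response 0 of 116 passed (limma, 0.594% of all; 9 at an unadjusted p below 0.05).

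The Kdm6b region chr11:69407498-69416059 touches no other gene and no input peak. It held 1538 and 1333 tags in Nur77 LPS libraries, against 788 and 759.8 untreated, and 1367 and 1269 in GFP LPS libraries, against 543 and 505 untreated. Its log2 change was 0.89 ± 0.08 in Nur77 cells (adjusted p 1.52e-06, limma) and 1.33 ± 0.08 in GFP cells (adjusted p 6.47e-08, limma). The Ezh2 region chr6:47593039-47596811, which holds the promoter window printed above, fell to 211 and 223 in Nur77 LPS libraries, against 461 and 488 untreated, and to 237 and 214 in GFP LPS libraries, against 466 and 441 untreated, log2 changes of -1.13 ± 0.08 and -1.01 ± 0.08. Inside Dot1l, the H3K79 methyltransferase gene, chr10:80762694-80765131 rose by 1.30 ± 0.17 and 1.42 ± 0.17. Inside Kdm2b, chr5:122950466-122952455 fell by 1.60 ± 0.17 and 1.49 ± 0.17 and chr5:122893795-122896975 by 1.18 in both lines. The Kdm5b region chr1:134560017-134563925, shared with Mgat4e, rose by 1.29 and 1.13, the Kdm1a region chr4:136569340-136570851 by 1.24 and 1.11, and the Setd3 region chr12:108168498-108171982, which overlaps an input peak, fell by 1.98 and 0.99 with no change per covered kb (0.01 and 0.03).

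In Nur77 cells 9 genes passed in both assays: Kdm6b, Kdm4a and Kmt2b higher, and Kdm1b, Kmt2d, Kmt2c, Kdm2b, Ezh2 and Kmt5c lower. That is 18% against 21.6% of the 11465 genes tested in both assays. In GFP cells 6 did, or 12% against 12.8%: Kdm5b, Kdm6b and Kmt2b higher, and Kmt2d, Kdm2b and Kmt5c lower. Without the replicate block no gene of the set was called in opposed directions in a line, against 0.253% of all genes in Nur77 cells and 0.157% in GFP cells. With the block on Pol II 17 genes in Nur77 cells and 10 in GFP cells passed in both assays in the same direction (34% and 20%, against 31.2% and 22%). With that block the assays opposed each other at 2 genes in Nur77 cells, Kdm3b and Kmt2a (4% against 0.471%), and at none in GFP cells (against 0.27%). Kdm3b had 464 and 548 Pol II tags in Nur77 LPS libraries, against 385 and 348 untreated (log2 0.46 ± 0.15, adjusted p 0.0704, limma; 0.0417 with the block), beside an H3K27ac change of -0.43. Up to 52.1% of the Kdm3b Pol II tags by library lay in regions shared with Reep2. The Kdm3b Pol II regions covered 11.6 and 16.3 kb in Nur77 LPS libraries, against 10.0 and 10.7 kb untreated. Kmt2a had the lower Pol II given above beside an H3K27ac change of 0.21, which turned to -0.22 without scaling factors. Per covered kb that Kmt2a H3K27ac call was lost. Over the 50 genes the log2 changes of the assays had a Pearson r of 0.551 in Nur77 cells and 0.657 in GFP cells. Between the lines, which share no library, r was 0.918 for Pol II and 0.965 for H3K27ac. These are descriptions across genes, which are not independent replicates and share stitched regions with their neighbours.

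**Figure D4:**
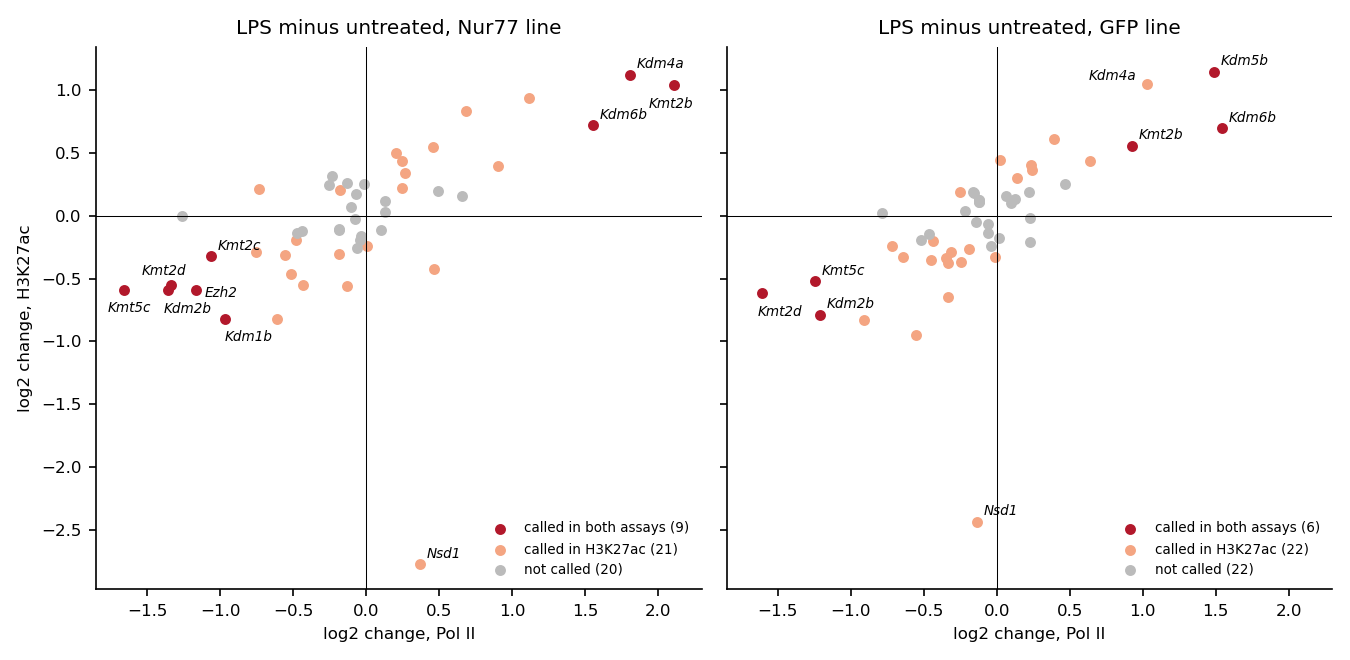
Log2 change of Pol II (horizontal axis) and of H3K27ac (vertical axis), LPS minus untreated, over the 50 genes in Nur77 cells (left) and GFP cells (right). The 9 and 6 genes called in both assays lie in the upper right and lower left, and Nsd1 lies far below the rest with little Pol II change.

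Between the lines at the same treatment, 9 genes differed in H3K27ac untreated, 4 higher and 5 lower in Nur77 cells (18% against 25% of all genes, 13% higher and 12% lower), and 17 after LPS, 9 higher and 8 lower (34% against 32.6%, 15% higher and 17.6% lower). Without scaling factors these were 2 higher and 5 lower untreated and 6 higher and 9 lower after LPS. Of all 12046 genes 1097 were then higher and 1456 lower untreated, and 1130 higher and 2312 lower after LPS. Kdm5b had 35.3 and 41.6 H3K27ac tags in untreated Nur77 cells, against 79.3 and 92.2 in untreated GFP cells, a log2 difference of -1.14 ± 0.17 (adjusted p 0.00262, limma). After LPS it had 85.0 and 64.8 in Nur77 cells, against 205 and 177 in GFP cells, a difference of -1.35 ± 0.17 (adjusted p 0.00108, limma). Kdm7a, an H3K9 and H3K27 demethylase gene, had 169 and 147 in Nur77 cells after LPS, against 273 and 309.8 in GFP cells, a difference of -0.88 ± 0.11 (adjusted p 0.00113, limma), and was 0.56 lower untreated. Setd3, whose product methylates actin, was lower by 0.49 and 0.50 and Kmt2a by 0.41 and 0.39, untreated and after LPS. By library 83.7 to 95.5% of the Setd3 tags lay over input peaks and 68.5 to 87% in regions shared with Ccnk. Per covered kb the calls of Setd3 and Kmt2a were lost at both treatments. Kdm2b was higher in Nur77 cells, at 435 and 449.7 after LPS, against 254 and 272 in GFP cells (0.75 ± 0.06), and at 654 and 681 untreated, against 469 and 441 in untreated GFP cells (0.55 ± 0.06). Kat8, the gene of MOF, was higher by 0.31 and 0.38 and Kdm2a by 0.24 and 0.29. Kmt2b was higher by 0.80 and 1.28, but with tags in proportion to overlap the untreated difference turned to -0.45 and that after LPS was 0.07. Setd4 was lower untreated by 0.37. Leaving out any 1 of 6 libraries ended the untreated calls of Kdm2a and Setd4, and any 1 of 3 those of Setd3 and Kat8.

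After LPS Nsd1, Kmt2c, Kdm3b and Kmt5b were also lower in Nur77 cells, by 0.44, 0.38, 0.31 and 0.29, and Kat7, Kdm5a, Ezh2, Kat2b and Nsd2 higher, by 0.23, 0.24, 0.33, 0.34 and 0.37. Leaving out any 1 of 7 libraries ended the Kat7 call, and any 1 of 3 those of Kdm5a, Kdm3b and Kmt5b. With tags in proportion to overlap the calls of Nsd1 and Kdm5a were lost. Per covered kb 2 genes passed at each treatment: Kdm5b and Setd4 untreated, Setd4 with its sign turned, and Setd2 and Setd4 after LPS, so that no call after LPS was kept. Of all 12046 genes 460 then passed untreated and 561 after LPS. For the untreated comparison the count was 5 without untreated GFP replicate 1, 4 without untreated GFP replicate 2 and 5 without untreated Nur77 replicate 2, and after LPS it was 11 without GFP LPS replicate 1. For Pol II the test between the lines called 0 of 50 untreated (0.244% of all genes) and 0 after LPS (0.547%), and 0 for the difference in LPS response (0.0673%). At an unadjusted p below 0.05 limma found 5, 7 and 1 of the 50 in these comparisons. With the replicate block Kdm5b was lower in Nur77 cells after LPS, at 119.7 and 83.6 tags, against 443 and 254 in GFP cells (log2 -1.74 ± 0.35, adjusted p 0.104 without the block and 0.0318 with it), beside 2.28% of all genes called with the block and 1.24% lower.

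HA-Nur77 peaks lay over 46 genes, and none of the 23 tested genes passed for LPS against untreated (limma, 0 of 23, against 2.51% of 5103 genes tested). At an unadjusted p below 0.05 there were 2, Kdm4a and Kdm6a. Kdm4a had 224, 251 and 111 HA tags after LPS, against 53.3, 93.0 and 60.2 untreated, a log2 change of 1.45 ± 0.36 (adjusted p 0.0618, limma). Kdm6a had 26.1, 15.2 and 33.7 after LPS, against 47.1, 50.5 and 65.0 untreated, a log2 change of -1.14 ± 0.35 (adjusted p 0.114, limma). In both, all LPS libraries lay on one side of all untreated ones. Part or all of the Kdm4a HA tags, 33.9 to 100% by library, lay over input peaks. Same-numbered HA libraries deviated together, and with that block 3 genes passed, against 19.6% of all genes (10.9% higher, 8.7% lower): Kdm4a (adjusted p 0.00604) and Dot1l (0.0191) higher and Kdm6a (0.0168) lower. Dot1l had 749.6, 531 and 774 tags after LPS, against 546, 427 and 562 untreated. Without the LPS replicate 3, or without the untreated replicate 2, 1 gene passed with no block.

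At the level of single HA regions, 29 regions over 21 genes had a peak in every HA library, and 0 passed (limma, against 4.64% of 11234 regions; 3 at an unadjusted p below 0.05). The highest was inside Dot1l at chr10:80758430-80759446, with 452, 296 and 535 tags after LPS, against 339, 186 and 368 untreated (log2 0.54 ± 0.34), and it overlaps an input peak. The region over the Kat7 promoter, chr11:95309746-95310762, which contains the window with the NBRE match, had 285, 113 and 285 after LPS, against 270.4, 102 and 290.4 untreated (0.07 ± 0.47). Replicate 2 was low there under both treatments. Another Dot1l region, chr10:80763220-80764236, had 253, 207 and 284 after LPS, against 164, 179 and 205 untreated (0.43 ± 0.26). The Kdm6b region chr11:69409934-69410993 had 145, 274 and 116 after LPS, against 101, 144 and 69.1 untreated (0.73 ± 0.38, adjusted p 0.31, limma; 1.72e-05 with the block). In each pair of same-numbered libraries its LPS value was the higher one. The region over the Kmt2e start, chr5:23432290-23433505, had 75.6, 98.8 and 87.3 after LPS, against 74.6, 70.1 and 79.9 untreated (0.21 ± 0.25), and overlaps input.

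With the replicate block 9 of the 29 regions passed (31% against 40.4% of all regions, 20.4% higher and 20% lower), 7 higher and 2 lower. The higher ones lay in Crebbp, Dot1l (2 regions), Kat6a, Kat6b, Kdm4a and Kdm6b, and the lower ones in Kdm2b and Setd7. The requirement of a peak in every HA library leaves out sites found under 1 treatment. Of all 116 HA regions over the set 4 had a peak in all LPS libraries and in no untreated one (3.45%, against 4.62% of 42505 HA regions), and 2 had the reverse (1.72% against 0.654%). None of the 6 overlaps an input peak. Those with LPS peaks lay at Ezh2 (chr6:47580470-47581384, 16.3, 17.4 and 14.9 tags after LPS), Kdm4a (chr4:118148905-118149781, 75.6, 72.4 and 61.8), Kdm7a (chr6:39165598-39166475, 25.6, 46.5 and 19.4) and Setd4 (chr16:93603537-93604619, 28.8, 22.6 and 16.7), and all are listed at 0 in the untreated libraries. Those listed at 0 after LPS lay at Kat2a (chr11:100711692-100713128, 17.04, 19.9 and 22.6 untreated) and Kat6b (chr14:21525350-21526366, 27.6, 13.8 and 18.7 untreated). A region is listed at 0 where no peak was called, which does not show that it held no tags, so no fold or test is given. All 29 tested regions overlapped an H3K27ac region by at least 1 bp, and 26 overlapped one that was tested. Of all 11234 tested HA regions 8782 overlapped a tested H3K27ac region. Over the 26 regions of the set the HA and H3K27ac log2 changes in Nur77 cells had a Pearson r of 0.856, and 24 of them shared a sign. For that count no share over all HA regions is given here. Set against the H3K27ac change of GFP cells, which hold no HA-Nur77, r was 0.86. Over 8782 HA regions of the whole genome the same values were 0.649 and 0.654. The points share libraries, and both r are descriptions.

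**Figure D5:**
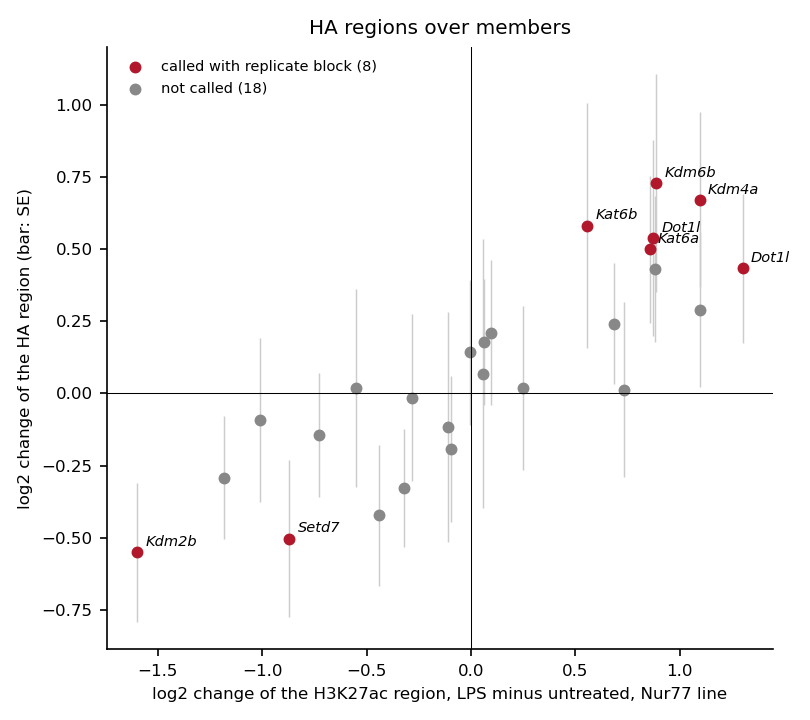
Log2 change of each of 26 HA regions (vertical axis) against that of the H3K27ac region it overlaps (horizontal axis), LPS minus untreated in Nur77 cells. Bars are SE without the block, and red points passed with the replicate block. Points run from Kdm2b in the lower left, at an HA change of -0.55 and an H3K27ac change of -1.60, to the Dot1l, Kdm4a and Kdm6b regions in the upper right.

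Genes of the same pathways that the name rule leaves out, such as Polycomb and MLL complex subunits, H3K9 methyltransferases and arginine methyltransferases, made a list of 42, of which 41 were tested. For Pol II 2 were higher and 5 lower in Nur77 cells, and 2 higher and 2 lower in GFP cells, with medians of -0.106 and -0.186. Of all genes 12.2% were higher and 12.7% lower in Nur77 cells, and 7.79% and 6.23% in GFP cells. Ehmt2, the H3K9 methyltransferase G9a, fell by 1.84 ± 0.20 and 1.61 ± 0.20 on the log2 scale in Nur77 and GFP cells (adjusted p 0.00162 and 0.00401, limma). Jmjd1c, a relative of the Kdm3 demethylases, rose by 1.05 ± 0.21 and 0.91 ± 0.21. Smyd5 rose by 0.91 ± 0.24 and 1.22 ± 0.24. Meaf6, a subunit gene of MYST complexes, fell by 2.15 ± 0.39 in Nur77 cells and, at -0.84, did not pass in GFP cells. For H3K27ac 11 were higher and 10 lower in Nur77 cells, and 9 higher and 8 lower in GFP cells, with medians of -0.00602 and -0.0653. Of all genes 30.3% were higher and 28.3% lower in Nur77 cells, and 29% and 25.4% in GFP cells. The H3K27ac of Smyd3 fell by 0.80 ± 0.06 and 0.76 ± 0.06 and that of Ing5 by 0.64 ± 0.07 and 0.70 ± 0.07. Between the lines 10 were higher and 5 lower in Nur77 cells after LPS, and 5 higher and 4 lower untreated. Of all genes 15% were higher and 17.6% lower after LPS, and 13% and 12% untreated. Smyd3 was lower in Nur77 cells by 0.81 after LPS and 0.77 untreated, and Ncoa1, a nuclear receptor coactivator gene, by 1.59 and 1.04. For HA 14 were tested and 0 passed, beside 2.51% of all genes tested. As a check of the LPS treatment, all 4 tested of 6 LPS-inducible genes were higher in Pol II in both lines and all 6 in H3K27ac, Tnf and Cxcl2 among them.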

How the data were processed

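Each library came with a peak list that the authors made with HOMER after HISAT2 2.1.0 alignment to mm10, per the submitters' processing notes; the HOMER version is not given in the sources used here. Factor style was used for HA and stitched regions for Pol II and H3K27ac, per the file headers, 1 list per library and no input in the call; the local option -L 0 is absent from 3 H3K27ac headers, and the untreated HA replicate 3 came from an unfiltered tag directory. The deposited normalized tag count is a signal per 10 M mapped tags, normalized by the authors. The deposited lists also give a focus ratio as a fraction, a findPeaks score, ratios (fold over local and clonal signal) and local p-values, which were not used; region sizes were not used either.

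Tags of peaks touching a RefSeq gene span (GRCm38.p6) by at least 1 bp within 1 kb were summed, divided by a trimmed-mean factor (30% of M, 5% of A trimmed; factors 0.613 to 1.31) and tested as log2(value + 1), a scale that understates changes of low genes, with limma 3.58.1 (R 4.3.3, trend, two-sided, Benjamini-Hochberg over all genes, FDR 0.05). Genes without a peak in every library of a target were not tested. The method was tested on simulated data. Same-numbered libraries correlated in their deviations by 0.382 to 0.64 for HA (3 pairs) and 0.213 to 0.459 for Pol II (12 pairs). For H3K27ac the values were -0.0568 to 0.101. In a group of 2 libraries the deviations mirror each other, so for Pol II and H3K27ac both replicate numbers give the same values. The number was therefore also fitted as a block, though the labels do not say that it pairs libraries. Members and lists were chosen with earlier results of these data known. Named are all called members up to 15 per direction, the highest of each family by level where described, Kdm6b, Ezh2, Ep300 and Crebbp, and the strongest regions. Alternatives were the block, no scaling, tags per covered kb, tags in proportion to overlap, another filter, pseudocount 10, equal list lengths, no input peaks, and each library left out. No mm10 genome was used, so HA peak sequences are not analysed here.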

Additional observations from a re-analysis of the deposited data

How the results depend on the processing

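Alternatives that changed a count of called genes of the set by over 1.5 times were these. With the replicate block HA gave 3 genes and 9 regions, and Pol II gave 22 genes in Nur77 cells, 13 in GFP cells and 1 between the lines after LPS, which was 1 too without untreated Nur77 replicate 1, a combination chosen after seeing the data. The block ended the H3K27ac calls of Kmt2a and Kdm6a in GFP cells, Kdm2a and Kat8 between untreated lines and Kat7 between lines after LPS; same-numbered H3K27ac libraries share only a number. No scaling gave 17 for Pol II in Nur77 cells. Per covered kb, counts were 4 and 1 for Pol II in Nur77 and GFP cells, 16 for H3K27ac in GFP cells (41 regions), and 2 and 2 between the lines untreated and after LPS. Without peaks over input they were 4 and 3 for Pol II in Nur77 and GFP cells, where 43 genes of the set were tested, beside 2270 and 1220 of all 10291 genes. For H3K27ac between untreated lines the count was then 5, beside 2052 of all 10991 genes. Testing genes with a peak in any library gave 1 for the H3K27ac difference in response, beside 232 of all 13821 genes. The cause was not tested. Leaving out 1 library gave 0 to 1 HA genes and 0 to 0 HA regions, 6 to 9 and 2 to 6 Pol II genes in Nur77 and GFP cells, 23 to 30 and 19 to 32 H3K27ac genes, 57 to 74 and 48 to 63 H3K27ac regions, and 4 to 10 and 11 to 16 genes between the lines untreated and after LPS; the lone library of a group is then assumed to vary like the others. Leaving out both HA replicate 3 libraries, added after seeing the data, gave 0 genes and 0 regions.

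Log2 changes that turned sign follow. For Pol II in GFP cells Kdm2b was 0.12 without peaks over input and Kmt5c 0.14 per covered kb. For H3K27ac without scaling, GFP values were -0.11 (Kat5), -0.0082 (Kdm5a), -0.049 (Nsd3) and -0.22 (Kmt2a), and Nur77 values -0.23 (Kat6b), -0.10 (Kat5), -0.039 (Kmt2e), -0.21 (Kdm3a) and -0.22 (Kmt2a). Without peaks over input they were -0.086 (Kdm4a) and 4.34 (Setd1b) in GFP cells and -0.64 (Kat6b) and 1.65 (Setd1b) in Nur77 cells. Per covered kb they were 0.038 (Setd1b) and -0.42 (Kdm5a) in GFP cells and -0.21 (Kdm3a) and -0.39 (Kdm5a) in Nur77 cells. With tags in proportion to overlap Setd1b was 0.29 in GFP cells and Kmt2b -0.45 between untreated lines. Between the lines per covered kb, Setd4 was 0.84, Kdm2a -0.066, Kmt2b -0.27 and Kat8 -0.14 untreated, and Setd3 0.078, Nsd1 0.37, Kdm2a -0.11, Nsd2 -0.12, Ezh2 -0.28 and Kdm5a -0.49 after LPS. Depth limits HA most, at 6.414 M mapped tags in the shallowest library.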
